A study of Mus musculus with 6 samples.

Results

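A set of 35 mesenchymal and epithelial-mesenchymal transition (EMT) genes was followed in mouse MTO cultures with guides against the atypical protein kinases C and in their controls. The genes were chosen by symbol, with earlier results of these data known. They were 8 transcription factors, 6 filament, adhesion and surface genes, 7 matrix proteins and 4 matrix enzymes. The others were 8 contractile and actin-binding genes and 2 secreted signals. The table holds 20756 genes by Ensembl identifier, and 22 of the 35 were among them. Of those, 7 were expressed, meaning at least 1 CPM (reads scaled to a common library total) in at least 3 libraries. Another 13 had reads but stayed below that filter, and 2 had no read in any library. The other 13 (Snai2, Twist2, Foxc2, Cdh2, Cdh11, Thy1, Nt5e, Tnc, Postn, Fstl1, Lox, Mmp2 and Wnt5a) were not analysed here.

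The samples were 3 MTO samples of genotype sgPrkci/Prkcz, with guides against Prkci and Prkcz (protein kinases C iota and zeta), and 3 of genotype sgC, the control. All 6 were of strain C57BL/6, untreated, and grown with EGF in a B-27 medium, per the labels, which do not spell out MTO. The sources used here do not give the tumour alleles that both genotypes carry, nor how many clones each genotype comes from. The study's title concerns mesenchymal colorectal cancer. The labels also describe injection under the skin, while the table is marked as in vitro. The design text speaks of tumours in 4 biological replicates, while 3 samples per genotype were analysed here, and it does not say whether each was a culture of its own. Sample names carry a different prefix in each genotype, whose meaning the labels do not give, so the prefix and the genotype cannot be told apart. Thus a p-value here reflects the spread among 6 samples and that spread may be technical.

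EMT is the programme by which epithelial cells loosen their junctions and take on the shape, filaments and matrix of mesenchymal cells. Transcription factors of the ZEB, SNAIL and TWIST families repress E-cadherin and are set against epithelial factors such as GRHL2 and OVOL2. Vimentin, N-cadherin, fibronectin and contractile proteins are its classical products, and in carcinomas much of that mRNA comes from stromal fibroblasts.

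Depth differed by genotype, with 1543826 to 1808292 reads in the sgPrkci/Prkcz libraries and 2821908 to 3048170 in the sgC libraries. The guide targets were read first. Prkci had 97, 98 and 83 reads in sgPrkci/Prkcz samples, against 139, 166 and 180 in the deeper sgC libraries. Scaled to depth it averaged 54.4 ± 0.686 CPM in sgPrkci/Prkcz samples and 54.9 ± 8.60 CPM in sgC samples (SD, n = 3 each), overlapping and not called (limma, Benjamini-Hochberg adjusted p = 0.986). Prkcz had 7, 3 and 1 reads, against 19, 17 and 14 in sgC, and fell (limma, Benjamini-Hochberg adjusted p = 0.00967). Prkcz was called in 14 of the 17 alternative fits that held it. Fits that lost the call included that without sgPrkci/Prkcz replicate 3 (limma, Benjamini-Hochberg adjusted p = 0.0611). Another was DESeq2 on recovered reads (Benjamini-Hochberg adjusted p = 0.209). Counts of 3′ tags do not check loss of the protein. Over all 12207 tested genes 35.2% were called at an adjusted p under 0.05, 11.4% as risen and 23.8% as fallen, and the median log2 fold change was -0.17. The median ran from -0.44 on chromosome 11 to 0.09 on chromosome 1 among autosomes and was 4.01 over 5 genes of the Y chromosome. Lines of different origin and an effect of the guides cannot be told apart from these samples. Each log2 fold change below compares sgPrkci/Prkcz with sgC as a difference in log2(CPM + 1), a scale on which low genes change less than in CPM.

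The material carried epithelial and very few stromal transcripts. All 8 epithelial markers (Epcam, Cdh1, Krt8, Krt18, Krt19, Cldn7, Vil1 and Cdh17) were tested, and together they made 4097 to 4638 CPM in sgPrkci/Prkcz samples and 3471 to 4039 CPM in sgC samples. Of 15 fibroblast markers 10 were in the table and 0 reached the filter, with a summed level of 0.553 to 2.27 CPM in sgPrkci/Prkcz samples and 0.328 to 3.02 CPM in sgC samples. Lum and Fap were at 0 in every library. Of 10 smooth muscle and pericyte markers 5 were in the table, at 31.8 to 35.9 CPM in sgPrkci/Prkcz samples and 23.6 to 32.2 CPM in sgC samples, nearly all from Smtn and Notch3. Endothelial markers, 7 of 10 in the table, summed to 2.27 to 3.89 CPM in sgPrkci/Prkcz samples and 8.86 to 15.4 CPM in sgC samples. Egfl7 held most of those reads, and the defining genes Pecam1 and Cdh5 were at 0. Leukocyte markers, 4 of 12 in the table, summed to 7.74 to 14.3 CPM in sgPrkci/Prkcz samples and 5.25 to 7.71 CPM in sgC samples, mostly from Cd68. In such bulk samples fewer cells of a type and less RNA per cell cannot be told apart.

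Promoter windows of the genes that were on differed in base composition from most of those that were off. RefSeq windows of 300 bases (250 before and 50 after a gene's start, build GRCm38.p6) were at hand for 21 of the 35 genes. The 5 tested genes with a window held 18 to 31 CG dinucleotides each, with a median of 27. The 11 genes below the filter with a window had 15 windows with 4 to 34, median 8. Of all 32851 windows the median was 7, and it was 21 over windows of all tested genes and 8 over windows of genes below the filter. The same contrast was thus seen over all genes. The 3 windows printed here show a member on in all samples, a member that fell and a member without a read, with every CG in capitals.
Twist1 promoter (chr12:33957421-33957720, plus strand): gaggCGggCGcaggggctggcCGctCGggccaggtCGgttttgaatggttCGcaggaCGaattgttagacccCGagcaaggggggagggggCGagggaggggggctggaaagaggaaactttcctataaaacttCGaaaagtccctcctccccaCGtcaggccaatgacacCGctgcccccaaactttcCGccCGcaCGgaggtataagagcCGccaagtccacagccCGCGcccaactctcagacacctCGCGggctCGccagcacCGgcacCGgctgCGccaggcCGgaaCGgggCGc
Tpm1 promoter (chr9:67049164-67049463, minus strand): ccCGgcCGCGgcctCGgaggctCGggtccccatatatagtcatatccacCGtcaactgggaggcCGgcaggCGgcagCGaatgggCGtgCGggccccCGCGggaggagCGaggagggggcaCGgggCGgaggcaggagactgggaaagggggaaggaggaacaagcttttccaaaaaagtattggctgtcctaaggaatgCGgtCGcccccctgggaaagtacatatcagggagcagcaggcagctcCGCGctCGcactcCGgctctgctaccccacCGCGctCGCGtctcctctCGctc
Acta2 promoter (chr19:34255324-34255623, minus strand): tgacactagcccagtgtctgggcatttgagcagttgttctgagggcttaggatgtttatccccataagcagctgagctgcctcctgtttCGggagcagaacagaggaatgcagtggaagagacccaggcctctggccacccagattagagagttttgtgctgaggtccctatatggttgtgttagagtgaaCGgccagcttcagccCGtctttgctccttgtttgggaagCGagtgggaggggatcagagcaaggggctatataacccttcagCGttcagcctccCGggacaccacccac
The Twist1 and Tpm1 windows held 27 CG dinucleotides each and the Acta2 window 6. The perfect CArG box, bound by serum response factor and read the same on both strands, occurred in 1 of the 27 windows of the set, that of Myl9, and in 1.63% of all windows.

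Among the transcription factors Twist1 was expressed, and Zeb1, Zeb2, Snai1 and Prrx1 were at or near 0. The levels of Snai2, Twist2 and Foxc2 were not analysed here. Twist1 (ENSMUSG00000035799, GRCm38 chromosome 12, 33957671 to 33959829, plus strand), a basic helix-loop-helix factor of mesoderm and of EMT, stood at 77.3, 71.9 and 77.1 CPM in sgPrkci/Prkcz samples, against 81.5, 68.6 and 76.9 CPM in sgC samples. The groups overlapped fully. Its mean was 75.4 ± 3.05 CPM in sgPrkci/Prkcz samples and 75.6 ± 6.54 CPM in sgC samples (SD, n = 3 each). The log2 fold change was 0.00 (95% interval -0.24 to 0.24; limma, Benjamini-Hochberg adjusted p = 0.994), and the interval spans a ratio of 0.848 to 1.18. Its sign turned positive under several scalings, without a call.

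Zeb2, a zinc-finger repressor of E-cadherin, had 0 reads in each sgPrkci/Prkcz library, against 5, 2 and 3 reads in the sgC libraries. Every read lay in the control group, and the pooled level there was 1.13 CPM. That level was 1.92 times a floor of 3 reads over the pooled sgPrkci/Prkcz libraries, which allows up to 0.587 CPM. The 1.92 takes the sgC reads as free of error, and the exact 95% counting interval of the ratio reached up to 0.773. Zeb2 did not reach the filter. In a limma fit with no filter, over 18852 genes, its log2 fold change was -1.06 (Benjamini-Hochberg adjusted p = 0.0135). DESeq2 on recovered reads, run on all genes with a read, called Lgals1 alone among the 20 members with reads. By default DESeq2 can leave low genes without an adjusted p. Zeb2 was not called there, and whether it was given an adjusted p was not recorded. Its paralog Zeb1 had 0 reads in sgPrkci/Prkcz libraries and 1 in sgC libraries. Snai1, another E-cadherin repressor, had 0 and 2 reads, and the limb and craniofacial factor Prrx1 had 0 reads in all 6 libraries. At this depth no difference was detectable for these 3 genes.

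**Figure D1:**
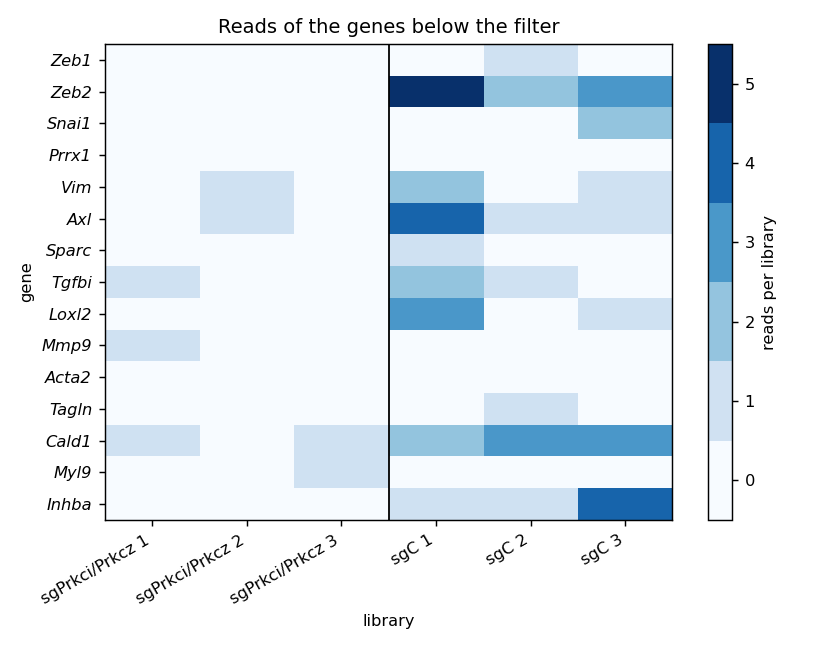
Reads recovered for the 15 genes of the set that were in the table but below the filter (rows), in each library (columns, sgPrkci/Prkcz left of the line and sgC right of it); colour gives reads per library. Most cells are 0, and Zeb2, Cald1, Axl and Inhba hold most of the reads, nearly all of them in sgC libraries.

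The filament and surface genes that were measured were nearly silent. Vim, which encodes the mesenchymal intermediate filament vimentin, had 0, 1 and 0 reads in sgPrkci/Prkcz libraries, against 2, 0 and 1 in sgC libraries. Its pooled ratio of 0.577 had an exact 95% counting interval of 0.0110 to 7.19, so neither direction could be read. Axl, a receptor tyrosine kinase of mesenchymal-like carcinoma cells, had 1 read in sgPrkci/Prkcz libraries and 6 in sgC libraries (ratio 0.289, 95% interval 0.00627 to 2.38).

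Of the matrix proteins, Lgals1 fell in sgPrkci/Prkcz samples, and fibronectin was low with no call. Lgals1 (ENSMUSG00000068220, chromosome 15, 78926725 to 78930465, plus strand) encodes galectin-1, a secreted lectin that binds beta-galactosides and is plentiful in fibroblasts. It stood at 369, 427 and 371 CPM in sgPrkci/Prkcz samples, against 594, 517 and 575 CPM in sgC samples. All 3 sgPrkci/Prkcz libraries lay below all 3 sgC libraries. Lgals1 averaged 389 ± 33.2 CPM in sgPrkci/Prkcz samples and 562 ± 40.2 CPM in sgC samples (SD, n = 3 each). It fell by 0.53 on the log2 scale (SE 0.08, 95% interval -0.70 to -0.36; limma, Benjamini-Hochberg adjusted p = 8.62e-06), or fell by 30.8%.

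Lgals1 was also set beside the other genes of its chromosome. Chromosome 15 had a median log2 fold change of -0.39 over 458 tested genes. Within 5 Mb of Lgals1 154 genes were tested, with a median of -0.42, and 59 of them fell and 6 rose. After subtraction of each chromosome's median Lgals1 stood at -0.14 (limma, Benjamini-Hochberg adjusted p = 0.203). Centring all genes on a median change of 0 left Lgals1 at -0.36 and called. Whether the neighbourhood's shift has a part in the fall was not tested.

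Fn1 (ENSMUSG00000026193, chromosome 1, 71585520 to 71653200, minus strand), the matrix glycoprotein fibronectin, stood at 6.82, 7.19 and 15.5 CPM in sgPrkci/Prkcz samples, against 11.7, 9.84 and 11.3 CPM in sgC samples. The groups overlapped because sgPrkci/Prkcz replicate 3 was the highest of all 6 libraries. The log2 fold change was -0.23 (95% interval -0.78 to 0.33; limma, Benjamini-Hochberg adjusted p = 0.553). Without sgPrkci/Prkcz replicate 3 it was -0.58 (limma, Benjamini-Hochberg adjusted p = 0.0994). Sparc, a collagen-binding matrix protein, had 0 reads in sgPrkci/Prkcz libraries and 1 in sgC libraries. Tgfbi, a TGF-β-induced matrix protein, had 1 and 3 reads.

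Matrix enzymes and the secreted signal stayed near 0. Loxl2, a collagen-crosslinking oxidase, had 0 reads in sgPrkci/Prkcz libraries and 4 in sgC libraries, 3 of them in replicate 1. Mmp9, a gelatinase, had 1 read in sgPrkci/Prkcz libraries and 0 in sgC libraries. Inhba, the activin A subunit, had 0 reads in each sgPrkci/Prkcz library, against 1, 1 and 4 in the sgC libraries. Its pooled sgC level was 1.15 times the floor over the sgPrkci/Prkcz group, taking the sgC reads as free of error. The exact 95% counting interval of the ratio of sgPrkci/Prkcz to sgC reached up to 1.47, so equal levels were not excluded. With no filter Inhba was not called (log2 fold change -0.70, Benjamini-Hochberg adjusted p = 0.0578 by limma).

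In the contractile group Tagln2, Tpm1 and Tpm4, which many cell types use, were expressed in every library, Tpm2 was near the filter, and Acta2, Tagln, Myl9 and Cald1 were below it. Acta2, smooth muscle actin, had 0 reads in all 6 libraries. Tagln, the smooth muscle actin-binding protein transgelin, had 0 reads in sgPrkci/Prkcz libraries and 1 in sgC libraries. Myl9, a regulatory myosin light chain, had 1 and 0 reads. Cald1, the actin and myosin linker caldesmon, had 1, 0 and 1 reads in sgPrkci/Prkcz libraries, against 2, 3 and 3 in sgC libraries (pooled ratio 0.433, exact 95% counting interval 0.0448 to 2.17).

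Tagln2 (ENSMUSG00000026547, chromosome 1, 172500047 to 172507380, plus strand), the transgelin of non-muscle cells, stood at 367, 353 and 385 CPM in sgPrkci/Prkcz samples, against 361, 380 and 356 CPM in sgC samples. The libraries of the groups were interleaved. The log2 fold change was 0.01 (95% interval -0.15 to 0.17; limma, Benjamini-Hochberg adjusted p = 0.928), a ratio between 0.901 and 1.13. It was negative, with no call, after subtraction of chromosome medians and without replicate 3 of either genotype.

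Tropomyosins are coiled-coil proteins that run along actin filaments and set which motors and binding proteins reach them. Tpm1 (ENSMUSG00000032366, chromosome 9, 67022590 to 67049406, minus strand) stood at 398, 380 and 390 CPM in sgPrkci/Prkcz samples, against 519, 489 and 456 CPM in sgC samples. The groups did not overlap. Tpm1 averaged 389 ± 9.18 CPM in sgPrkci/Prkcz samples and 488 ± 31.4 CPM in sgC samples (SD, n = 3 each). It fell by 0.32 on the log2 scale (SE 0.08, 95% interval -0.48 to -0.16; limma, Benjamini-Hochberg adjusted p = 0.00169). Under TMM scaling (-0.19), with all genes centred on their median (-0.16) and with edgeR (-0.18) or DESeq2 (-0.18) on recovered reads the call was lost. Limma without a mean-variance trend gave no call either (Benjamini-Hochberg adjusted p = 0.0819). Within 5 Mb of Tpm1 77 genes were tested, with a median log2 fold change of -0.19.

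The other tropomyosin genes gave no call. Tpm4 (ENSMUSG00000031799, chromosome 8, 72134975 to 72153142, plus strand), a non-muscle tropomyosin, stood at 409, 394 and 367 CPM in sgPrkci/Prkcz samples, against 362, 359 and 400 CPM in sgC samples. The groups overlapped, with a log2 fold change of 0.06 (95% interval -0.10 to 0.23; limma, Benjamini-Hochberg adjusted p = 0.589). Tpm4 was called as risen once all genes were centred on their median (0.23, adjusted p = 0.0303 by limma) and once chromosome medians were subtracted (0.46, adjusted p = 5.59e-05 by limma). Chromosome 8 had a median of -0.40 over 633 tested genes. Tpm2 (ENSMUSG00000028464, chromosome 4, 43514711 to 43523765, minus strand), the striated and smooth muscle beta-tropomyosin, was near the filter, at 1.14, 0.553 and 1.94 CPM in sgPrkci/Prkcz samples, against 2.35, 0.984 and 2.13 CPM in sgC samples. With 6 and 16 reads per group its interval was wide (log2 fold change -0.36, 95% interval -1.18 to 0.46; limma, Benjamini-Hochberg adjusted p = 0.521). Tpm3, outside the set, averaged 212 ± 9.12 CPM in sgPrkci/Prkcz samples and 220 ± 16.5 CPM in sgC samples (SD, n = 3 each; log2 fold change -0.05; limma, Benjamini-Hochberg adjusted p = 0.682). Tropomyosin genes resemble each other in sequence, so tags may be shared among them.

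**Figure D2:**
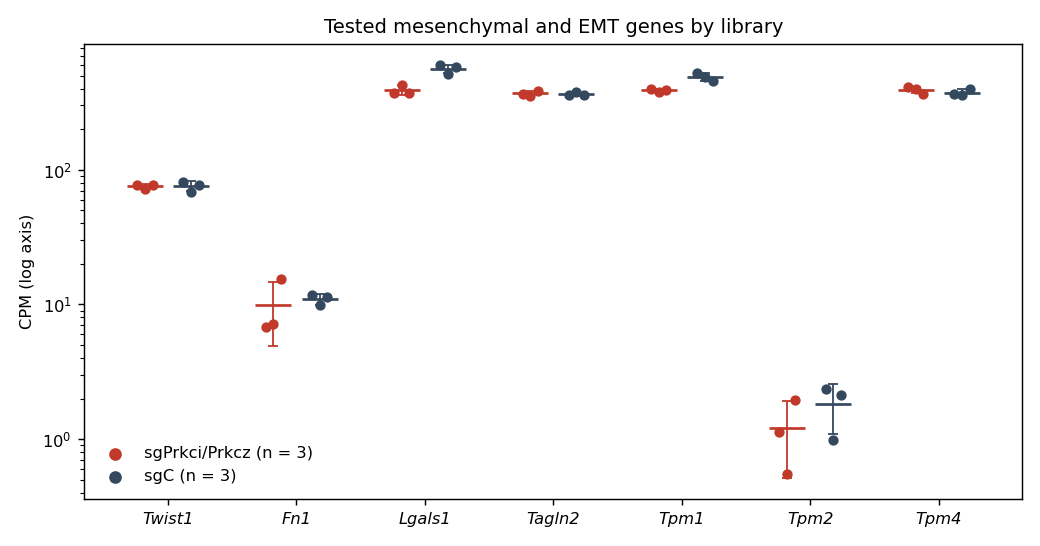
CPM (log axis) of the 7 tested genes of the set in each library, sgPrkci/Prkcz left and sgC right of each gene; points are libraries, horizontal lines means and bars SDs (n = 3 per genotype). Lgals1 and Tpm1 separate the genotypes, with sgPrkci/Prkcz lower, and the other 5 overlap.

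Read as a group, the 7 tested genes gave 0 rises and 2 falls (Lgals1 and Tpm1), a share of 28.6% called, against 35.2% over all tested genes. At an unadjusted p under 0.05 limma also found 0 rises. Of the 6 that edgeR tested on recovered reads 0 rose and 1 fell (Lgals1), while edgeR called 38.1% of 9842 genes, 19.9% as risen and 18.2% as fallen. Of the 7 genes 6 had 1 CPM or more in every library, and Tpm2 passed the filter with 2 libraries of each genotype. Their median log2 fold change was -0.23, against -0.17 over all tested genes. The 2 falls were also called with each library left out in turn. Centred on the median, the set gave 1 rise (Tpm4) and 1 fall (Lgals1), while 31.8% of all genes were called, 17.4% as risen and 14.4% as fallen. The libraries of the genotypes did not overlap for 2 of the 7 genes, both lower in sgPrkci/Prkcz, against 45.0% of all tested genes, of which 30.0% lower and 15.0% higher.

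**Figure D3:**
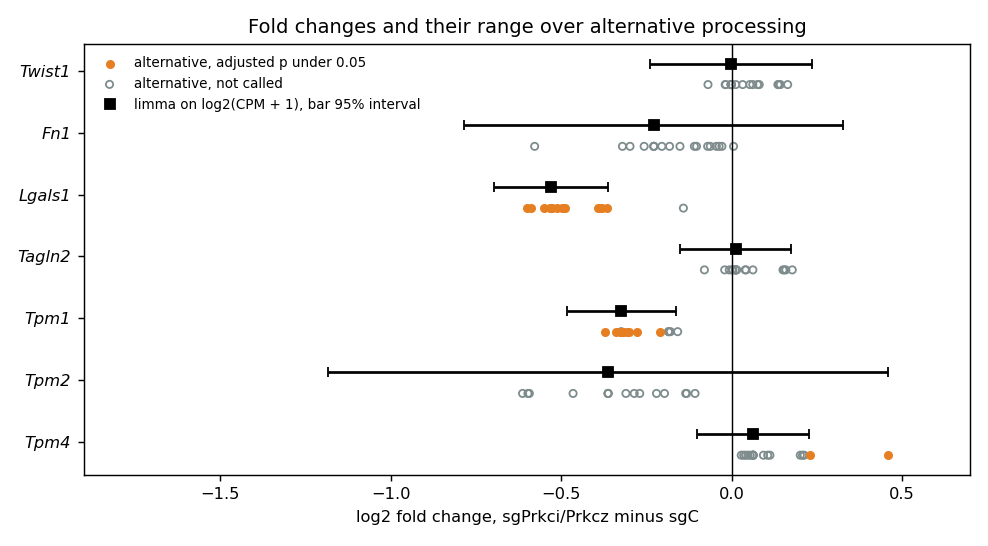
Log2 fold change (sgPrkci/Prkcz minus sgC, x axis) of the 7 tested genes; squares with bars are limma values with 95% intervals, and circles below are the 18 alternatives, filled orange where called. Lgals1 stays called except at -0.14, after subtraction of chromosome medians, and Tpm1 moves between -0.37 and -0.16.

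The 15 genes below the filter held 7 reads over the sgPrkci/Prkcz libraries (3, 2 and 2) and 45 over the sgC libraries (20, 10 and 15). Their summed level was 1.70, 1.11 and 1.30 CPM in sgPrkci/Prkcz samples, against 6.70, 3.28 and 5.32 CPM in sgC samples. All sgPrkci/Prkcz libraries lay below all sgC libraries. The same separation was seen over all 8549 genes below the filter, at 1280, 1300 and 1334 CPM in sgPrkci/Prkcz samples. In sgC samples these genes summed to 1987, 1700 and 1863 CPM. Pooled, their level was 1304 CPM in sgPrkci/Prkcz samples and 1849 CPM in sgC samples. That is a ratio of 0.705, and that of the 15 genes was 0.269. Of the 15 genes 9 had no read in sgPrkci/Prkcz libraries and 4 had none in sgC libraries. Over all genes below the filter those shares were 59.2% and 34.0%, in libraries of unequal depth. No test was made of that sum, because the filter chose its members.

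Other genes linked to EMT or TGF-β signalling, 70 chosen by name outside the set, changed in both directions. Of these 63 were in the table and 52 were tested. The list was not split by role, so its counts give no direction for the EMT programme. By limma 11 rose and 11 fell, 21.2% each, against 11.4% and 23.8% of all tested genes, with a median log2 fold change of 0.02. Some of the falls, Timp3 among them, were of genes that passed the filter through sgC alone. Centring all genes on their median gave 16 rises and 6 falls, where all genes had 17.4% risen and 14.4% fallen. Qsox1, a secreted sulfhydryl oxidase, averaged 110 ± 13.2 CPM in sgPrkci/Prkcz samples and 33.5 ± 2.95 CPM in sgC samples (SD, n = 3 each; log2 fold change 1.69; limma, Benjamini-Hochberg adjusted p = 2.06e-11). The transcription factor Runx1 rose by 0.74 on the log2 scale, to 175 ± 10.5 CPM in sgPrkci/Prkcz samples, against 104 ± 2.96 CPM in sgC samples. The hyaluronan receptor Cd44 rose by 0.79.

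The falls among those genes included a partner of bHLH factors and inhibitors of matrix proteases. Tcf4, an E protein that forms dimers with bHLH factors such as Twist1, stood at 383, 352 and 349 CPM in sgPrkci/Prkcz samples, against 658, 562 and 675 CPM in sgC samples. The groups did not overlap, and its log2 fold change was -0.80 (limma, Benjamini-Hochberg adjusted p = 7.34e-09). Timp2, an inhibitor of metalloproteinases, averaged 179 ± 17.0 CPM in sgPrkci/Prkcz samples and 325 ± 13.8 CPM in sgC samples (SD, n = 3 each; log2 fold change -0.86). Igfbp4, an IGF-binding protein, had the smallest adjusted p of the falls (log2 fold change -4.77; limma, Benjamini-Hochberg adjusted p = 3.48e-17). Timp3, chosen after its values were seen and past the filter through sgC alone, had 0 reads in sgPrkci/Prkcz libraries and 21 in sgC libraries. Its pooled sgC level was 4.04 times the floor over the sgPrkci/Prkcz group, taking the sgC reads as free of error.

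Actin cytoskeleton genes and targets of serum response factor, 44 by name with 37 tested, gave 8 rises and 8 falls by limma, 21.6% each, against 11.4% risen and 23.8% fallen of all tested genes (median log2 fold change of the list 0.03). Centring all genes on their median gave 14 rises and 5 falls, with 17.4% risen and 14.4% fallen of all genes. The crosslinker Actn1 averaged 398 ± 14.2 CPM in sgPrkci/Prkcz samples and 221 ± 39.1 CPM in sgC samples (SD, n = 3 each; log2 fold change 0.86; limma, Benjamini-Hochberg adjusted p = 6.15e-08). The filamin-interacting gene Filip1l (0.83) and Lima1, an actin-bundling protein of the cadherin belt (0.59), rose too. Cnn3, a calponin of non-muscle cells, stood at 30.1, 37.1 and 40.8 CPM in sgPrkci/Prkcz samples, against 110, 107 and 111 CPM in sgC samples. It fell by 1.58 on the log2 scale (limma, Benjamini-Hochberg adjusted p = 6.39e-11), with no overlap of the groups. Non-muscle myosin Myh9 (-0.41) and the myosin phosphatase subunit Ppp1r12a (-0.43) fell by less. Both calls were lost once chromosome medians were subtracted (-0.02 for Myh9 and -0.18 for Ppp1r12a). Of the 18 alternatives 17 called Myh9 and 15 called Ppp1r12a. Pdlim1, chosen after its values were seen and past the filter through sgC alone, had 0 reads in sgPrkci/Prkcz libraries and 24 in sgC libraries. Its pooled sgC level was 4.62 times the floor over the sgPrkci/Prkcz group, taking the sgC reads as free of error.

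Epithelial and junction genes were listed by name as a counterpart to EMT, 54 in all with 53 tested. They gave 20 rises (37.7%) and 7 falls (13.2%), against 11.4% risen and 23.8% fallen of all tested genes. The median log2 fold change of the list was 0.13. Centring on the median gave 25 rises and 2 falls, with 17.4% risen and 14.4% fallen of all genes. The uncentred falls numbered 3 without sgC replicate 2 and 4 without sgC replicate 3. Cdh1, E-cadherin, stood at 802, 711 and 842 CPM in sgPrkci/Prkcz samples, against 926, 732 and 694 CPM in sgC samples. The groups overlapped (log2 fold change 0.01; limma, Benjamini-Hochberg adjusted p = 0.95), and after subtraction of chromosome medians Cdh1 was called as risen (0.41, adjusted p = 0.00115 by limma). Epcam, an epithelial adhesion molecule, averaged 790 ± 37.8 CPM in sgPrkci/Prkcz samples and 551 ± 14.7 CPM in sgC samples (SD, n = 3 each; log2 fold change 0.52; limma, Benjamini-Hochberg adjusted p = 1.73e-06).

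Elf3, an epithelial ETS factor, rose by 0.95 on the log2 scale. The mucin Muc1, past the filter through sgPrkci/Prkcz alone, had 35 reads in sgPrkci/Prkcz libraries and 2 in sgC libraries, a ratio of pooled CPM of 30.3 with an exact 95% counting interval of 7.79 to 260. Among the falls were the keratin Krt7 (-0.37), the junction scaffold Tjp1 (-0.52) and the recycling GTPase Rab25 (-0.36). Of the 18 alternatives 16 called Krt7 and 12 called Rab25. Krt7 was at 0.02, not called, after subtraction of chromosome medians. The alternatives that did not call Rab25 included TMM scaling, centring on the median and edgeR. The sets share no genes, and the difference between the epithelial genes and the 7 tested mesenchymal genes was not tested.

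**Figure D4:**
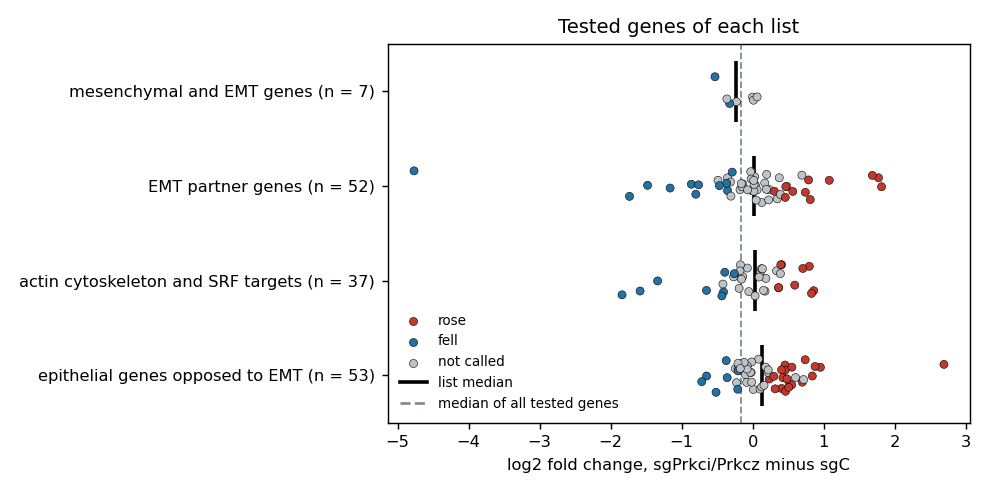
Log2 fold change (sgPrkci/Prkcz minus sgC, x axis) of each tested gene in the mesenchymal set and in the 3 other sets, with vertical position spread at random; red points rose, blue fell and grey were not called. Black bars are medians (-0.23, 0.02, 0.03 and 0.13, top to bottom) and the dashed line is the median of all tested genes, -0.17.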

How the data were processed

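The authors deposited 1 table of CPM values for 6 libraries made with a 3′ tag kit, per the labels' protocols. The submitters' processing notes name the build GRCm38. The aligner, the counter and their settings are not given in the sources, and the labels call molecular identifiers optional. As a check, 100% of the CPM values the authors deposited came out whole when divided by a library's smallest value (relative tolerance 1e-06), so whole reads were recovered. One read was worth 0.328 to 0.648 CPM. Symbols came from a GENCODE annotation of GRCm38 (20675 of 20756 identifiers); 1 listed gene, Pals1, was matched through its synonym Mpp5. Promoter windows came from RefSeq.

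The 12207 genes that reached 1 CPM in 3 or more libraries were tested with limma 3.58.1 (mean-variance trend, robust) in R 4.3.3 on log2(CPM + 1), with Benjamini-Hochberg adjustment over all of them and a threshold of 0.05. As alternatives, edgeR 4.0.16 on recovered reads called 3753 genes, and DESeq2 1.42.0, other scalings, filters, pseudocounts, thinning and each library left out were run, 18 in all. The pipeline was tested on simulated data. The members and lists were chosen with earlier results of these data known. All members were described; of the other lists, up to 3 risen and 3 fallen genes with the smallest adjusted p were named, plus Timp3, Pdlim1, Tpm3 and Cdh1, chosen after their values were seen. Intervals cover counting error only, and floors (3 reads over a group) cover only that of a count of 0. Overlapping antisense genes of Fn1 and Tpm4 held at most 1 read.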

Additional observations from a re-analysis of the deposited data

How the results depend on the processing

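No paired analysis was possible because the labels number no replicates: the numbers 1 to 3 used here only name samples within a genotype and tie none of them across genotypes. The 18 alternatives gave 538 values for 31 named genes, of which 482 kept both direction and call. Members fallen numbered 1, in place of 2, with TMM scaling, centring on the median, chromosome medians removed, limma without trend, edgeR and DESeq2, and members risen numbered 1, in place of 0, with centring or with chromosome medians removed. With no filter the falls numbered 3, Zeb2 being added, and with each library left out the numbers were 0 and 2. The cause of these and the following changes was not tested.

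Fallen EMT partner genes numbered 6 with the median set to 0, 7 with chromosome medians removed, limma without trend or edgeR, and 5 with DESeq2, in place of 11. Risen actin genes numbered 14 with TMM scaling or the median set to 0, 13 with chromosome medians removed, 15 with edgeR and 5 without trend, in place of 8. Fallen actin genes numbered 5 with the median set to 0 or without trend, 4 with chromosome medians removed or edgeR, and 3 with DESeq2, in place of 8. Epithelial genes gave 13 rises without trend, in place of 20. Their falls numbered 4 with quantile normalization, 3 with TMM scaling or edgeR, 2 with the median set to 0, chromosome medians removed or DESeq2, and 1 without trend, in place of 7. They ranged from 3 to 8 with each library left out.

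Values near 0 changed sign, all without a call in the setting concerned. Twist1 was at 0.081 with quantile normalization, 0.14 with TMM scaling, edgeR or DESeq2, 0.16 with the median set to 0, 0.075 with chromosome medians removed and 0.062 when thinned. With libraries left out Twist1 lay between -0.070 and 0.053. Fn1 was at 0.0053 with quantile normalization. Tagln2 was at -0.080 with chromosome medians removed and between -0.021 and 0.042 with libraries left out. Prkci was at 0.094 with quantile normalization, 0.13 with TMM scaling, edgeR or chromosome medians removed, 0.14 with DESeq2 and 0.16 with the median set to 0. It lay between -0.11 and 0.11 with libraries left out. Tpm3 was at 0.084 with TMM scaling, 0.076 with chromosome medians removed, 0.11 with the median set to 0, 0.090 with edgeR and 0.094 with DESeq2. Cdh1 was at -0.014 when thinned and between -0.072 and 0.14 with libraries left out. Krt7 was at 0.016 with chromosome medians removed. Depth limited the 15 genes below the filter: a count of 0 allows up to 0.587 CPM over sgPrkci/Prkcz libraries and 0.339 CPM over sgC libraries.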
